A study of Mus musculus with 30 samples.

Results

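The 10 genes described here, Adgre1, Cd68, Csf1r, Ms4a7, Itgam, Ly6c2, Lyz2, Mertk, Aif1 and Spi1, are transcripts by which monocytes and macrophages are commonly recognised, and they were taken by symbol from the 26264 gene symbols in the count files. All 10 passed the filter on low counts, which left 17136 genes. Bulk RNA came from the tibialis anterior, a muscle of the shin, of male or female mice, either uninjured or sampled at day 4, 7, 11 or 15 of volumetric muscle loss, the surgical removal of part of the muscle. Each sex at each time had 3 libraries, which makes 10 groups and 6 libraries per time. Uninjured muscle of the same sex was the control, and no strain, age or further treatment is given in the sources used here. Whether a group's libraries came from separate animals is not stated in the labels, so p-values measure the spread between these libraries, which may be technical.

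Monocytes are made in bone marrow, circulate in blood and enter injured muscle, where they become macrophages that clear dead fibres and later accompany regeneration. Survival and growth of the lineage depend on the receptor Csf1r and its ligands Csf1 and Il34, and its identity on the transcription factor Spi1 (PU.1). Classical blood monocytes carry the Ly6C antigen, of which Ly6c2 encodes a part, and lose it as they mature into tissue macrophages, many of which carry the receptor Mertk for the clearance of dying cells.

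Total counts ran from 13089999 to 57277336 per library, and uninjured libraries had 40757683 or more while those of day 15 had 30024528 or fewer. Of the counts between 1 and 20 in a library, 65.5% to 77.5% were even numbers. Levels are given in CPM, the count scaled by the library's total and by its TMM (trimmed mean of M values) factor. Summed CPM of 9 genes of mature fibres had a median of 429762 in uninjured muscle and 48070 at day 4, and the mean TMM factors were 0.527 and 1.30. With scaling by library size alone the median log2 change of all tested genes at day 4 moved from 0.17 to 1.47, so each change is stated relative to the TMM scaling. In 1 library, labelled female day 11 replicate 3, Xist and Y-linked transcripts did not match the labelled sex. The main values of day 11 are therefore also given without it.

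Promoter sequences are shown for 3 of the genes because later results set a gene against its close paralog (Ly6c2 against Ly6c1, Lyz2 against Lyz1), and because Itgam is a textbook target of Spi1. RefSeq windows of 300 bases, 250 before to 50 after the gene start, were held for 7 of the 10 genes, in build GRCm38.p6, whereas the counts were made on mm39. The 150 bases before the start are printed 5′ to 3′ on the gene's strand, and capitals mark GAGGAA, a purine-rich core of the kind Spi1 binds, read on either strand (TTCCTC on the reverse). The stretches are chr7:128062490-128062639 (plus strand) for Itgam, chr10:117282273-117282422 (minus) for Lyz2, chr10:117292869-117293018 (minus) for Lyz1, chr15:75111972-75112121 (minus) for Ly6c2 and chr15:75048838-75048987 (minus) for Ly6c1.
Itgam: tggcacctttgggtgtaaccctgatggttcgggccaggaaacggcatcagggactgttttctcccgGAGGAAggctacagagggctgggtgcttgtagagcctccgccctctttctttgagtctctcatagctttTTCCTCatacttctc
Lyz2: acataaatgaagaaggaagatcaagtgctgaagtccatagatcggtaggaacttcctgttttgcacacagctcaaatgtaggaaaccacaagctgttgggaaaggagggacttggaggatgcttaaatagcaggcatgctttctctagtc
Lyz1: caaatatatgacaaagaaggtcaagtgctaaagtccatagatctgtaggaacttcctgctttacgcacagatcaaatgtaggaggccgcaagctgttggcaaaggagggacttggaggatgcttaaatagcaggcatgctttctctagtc
Ly6c2: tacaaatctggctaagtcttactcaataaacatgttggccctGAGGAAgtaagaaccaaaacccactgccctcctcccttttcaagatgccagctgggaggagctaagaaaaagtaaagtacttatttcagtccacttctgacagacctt
Ly6c1: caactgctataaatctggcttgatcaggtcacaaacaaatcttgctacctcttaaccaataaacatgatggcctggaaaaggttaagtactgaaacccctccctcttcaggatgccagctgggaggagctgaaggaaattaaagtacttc
GAGGAA on either strand was present in the 300-base windows of 5 of the 7 genes (Aif1, Cd68, Itgam, Ly6c2 and Ms4a7). It was present in 28.3% of the 32851 windows searched, so its presence is common. The longer GAGGAAGT, which contains GAGGAA, was present in 1 of the 7, Ly6c2, and in 3.20% of the windows searched. A gene was counted if any of its windows held the letters, and some genes have more than 1 window, so the 2 kinds of share differ in unit. A global alignment of the printed stretches gave 134 identical bases in 151 aligned columns (88.7%) for Lyz2 and Lyz1, and 95 in 175 (54.3%) for Ly6c2 and Ly6c1. A further start gives another window for each of Ly6c2 and Ly6c1, and the other 3 pairings of these gave 44.4% to 48.1% identity. The other Ly6c2 window overlaps the printed stretch. It holds GAGGAA 2 times before the start, and 1 of these is the site already printed. The other Ly6c1 window holds GAGGAA 1 time before the start, as part of GAGGAAGT. The longer letters therefore do not set Ly6c2 apart from Ly6c1. These identities and sites are matches of letters and show no binding.

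The transcripts of some members share sequence with other genes, and how the authors' counting treated shared reads or strand is not given in the sources used here. In the GENCODE M21 transcripts, 13.9% of the 50-base words of Ly6c2 were also in Ly6c1 and 15.4% of those of Lyz2 were also in Lyz1. For Itgam 66.3% were also in Gm49368, a gene model on the same strand that the count files do not list. An exon of Csf1r overlaps one of Hmgxb3 on the opposite strand. The levels of these 4 genes are uncertain for these reasons, and the shares of words do not measure by how much.

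In uninjured muscle all 10 genes together summed to a median of 43.3 CPM over the 6 libraries (lowest 30.5, highest 51.2). At day 4 the median was 2409.6 CPM (range 2123.8 to 3114.5). It was 920.3 CPM at day 7 (505 to 1995.5), 885 CPM at day 11 (175 to 1746.4) and 474 CPM at day 15 (215 to 1017.0). Without the library labelled female day 11 replicate 3, day 11 had a median of 929 CPM and a lowest sum of 341. Every injured library lay above every uninjured one, and every day 4 library above every library of days 7, 11 and 15. Whether more cells or more RNA per cell lay behind such a rise cannot be told apart in bulk tissue.

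**Figure D1:**
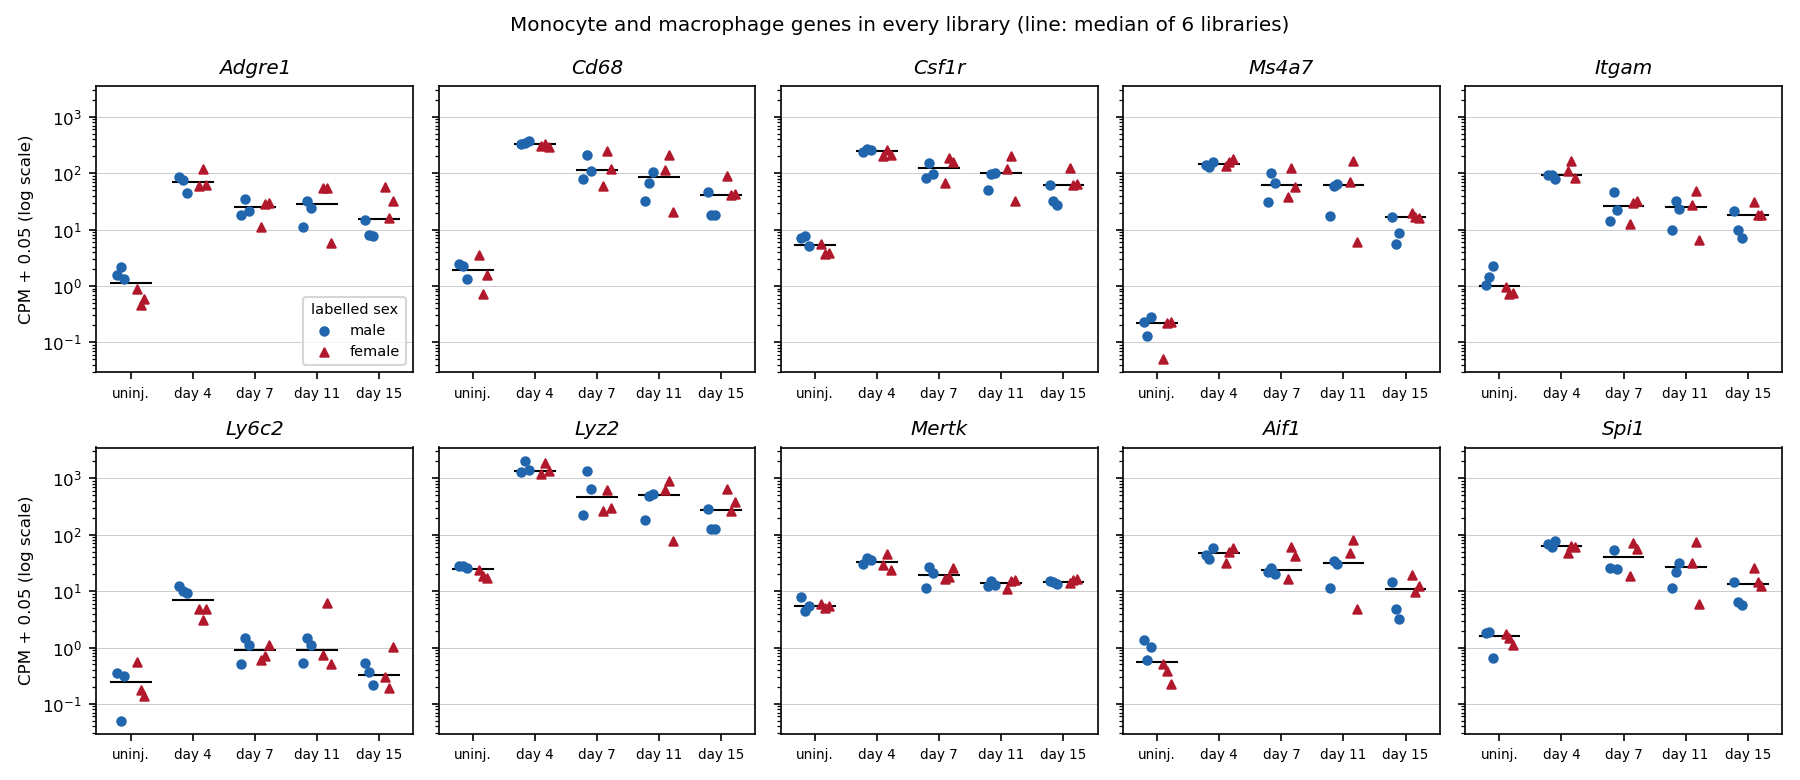
CPM of each gene in all 30 libraries on a log axis (0.05 was added so that libraries at 0 can be drawn), by time, with circles for males, triangles for females and a line at the median of 6 libraries. Every gene has its highest median at day 4, Mertk spans a small range, and the day 15 libraries of Ly6c2 overlap the uninjured ones.

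Levels per kilobase of exon (CPM per kb, from the GENCODE M21 exon union) put Lyz2, the lysozyme of macrophages and neutrophils, first at every time, with a median of 18.9 in uninjured muscle and 1033.6 at day 4. Cd68, a glycoprotein of lysosomal membranes, had rank 2 at every time, with medians of 1.47 CPM per kb in uninjured muscle, 262 at day 4 and 33.3 at day 15. The ranges of Lyz2 and Cd68 did not overlap in uninjured muscle, at day 4 or at day 15, and did at days 7 and 11, although Lyz2 was above Cd68 in all 6 libraries each time. Ms4a7, a membrane protein of the MS4A family, was last in uninjured muscle (0.0385 CPM per kb) and ranked 4 of 10 at day 4 (33.1). Mertk moved the other way, from rank 3 in uninjured muscle (1.24) to rank 9 at day 4 (7.61), day 7 (4.45), day 11 (3.20) and day 15 (3.39). Ly6c2 was last after injury, at 2.55 CPM per kb at day 4 and 0.103 at day 15, below Mertk in all libraries with no overlap. Most other neighbours in these orders overlapped.

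As a share of the counts of the 10 genes, Lyz2 held 57.3% ± 2.5 (SD, n = 6) in uninjured muscle, 58.9% ± 4.1 at day 4 and 59.2% ± 3.4 at day 15. Mertk held 14.1% ± 3.0 in uninjured muscle, 1.30% ± 0.17 at day 4 and 3.88% ± 2.1 at day 15. Cd68 held 4.59% ± 2.1 in uninjured muscle, 13.4% ± 2.9 at day 7 and 8.54% ± 0.86 at day 15, and Ms4a7 0.359% ± 0.23, 6.85% ± 1.3 and 3.03% ± 0.82. Mertk thus made up more of the sum before injury, and Cd68 and Ms4a7 more of it at day 7. These shares are descriptions and were not tested.

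Against uninjured muscle, 10 of 10 genes were called higher at days 4, 7 and 11 and 9 of 10 at day 15, by edgeR's quasi-likelihood test with an adjusted p under 0.05. Among all tested genes 40.1% were called higher and 33.0% lower at day 4, 41.6% and 29.9% at day 7, 42.7% and 29.7% at day 11, and 39.7% and 29.3% at day 15, so a call was common in this tissue. The median log2 fold change of the 10 genes was 6.13 at day 4 and 4.60 at day 7. It was 4.43 at day 11 and 3.77 at day 15. Over all tested genes, rises and falls together, the medians were 0.17, 0.24, 0.32 and 0.26. How many of all tested genes changed as much as the members was not counted. All 6 day 4 libraries lay above all 6 uninjured libraries for 10 of 10 genes, and for 9 of 10 at the other days, the exception being Ly6c2. Of all tested genes 31.0% were separated upward in this way at day 4, 24.9% at day 7, 25.8% at day 11 and 24.1% at day 15.

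**Figure D2:**
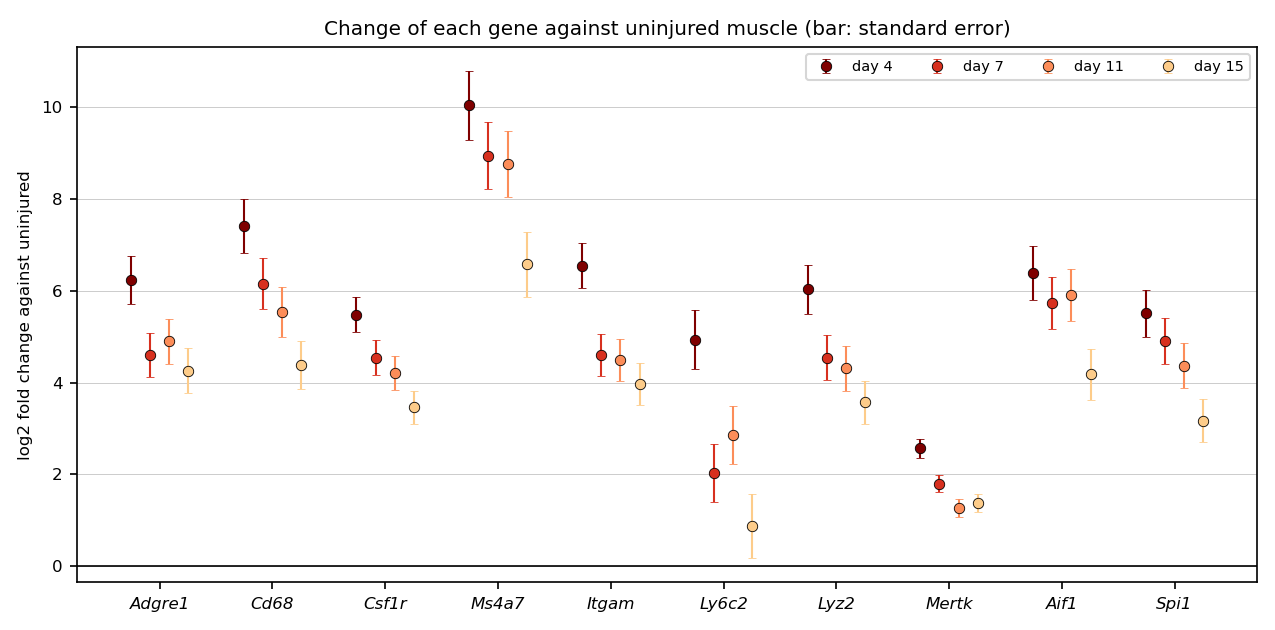
Log2 fold change of each gene against uninjured muscle at days 4, 7, 11 and 15, with its standard error from the edgeR fit of 30 libraries. Ms4a7 has the largest values, from 10.04 at day 4 to 6.57 at day 15, Mertk the smallest at day 4 (2.56), and Ly6c2 falls to 0.86 at day 15.

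Spi1, the transcription factor, had a lowest, median and highest level of 0.611, 1.54 and 1.80 CPM in uninjured muscle and 47.0, 62.1 and 78.0 CPM at day 4. Its medians at days 7, 11 and 15 were 40.1, 26.6 and 13.2 CPM. All injured libraries were above all uninjured ones, with log2 fold changes of 5.51 ± 0.51 (SE) at day 4 (adjusted p = 7.3e-10) and 3.17 ± 0.47 at day 15 (adjusted p = 2.2e-06). Csf1r, the growth factor receptor, went from 3.58, 5.28 and 7.62 CPM in uninjured muscle to 198, 247 and 269 CPM at day 4, and its median was 62.0 CPM at day 15. Its log2 fold change was 5.48 ± 0.39 at day 4 (adjusted p = 1.4e-11) and 3.46 ± 0.36 at day 15.

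Itgam encodes CD11b, the alpha chain of the integrin Mac-1, which adheres to fibrinogen and complement. Its level was 0.667, 0.947 and 2.21 CPM in uninjured muscle, 78.2, 92.2 and 162 CPM at day 4, and a median of 18.01 CPM at day 15. The change was 6.55 ± 0.50 on the log2 scale at day 4 and 3.96 ± 0.45 at day 15. Adgre1, which encodes the F4/80 antigen of mature mouse macrophages, had 0.417, 1.06 and 2.08 CPM before injury and 45.2, 68.5 and 117 CPM at day 4. Its change of 6.23 ± 0.52 at day 4 was followed by 4.60 ± 0.49 at day 7, 4.90 ± 0.49 at day 11 and 4.26 ± 0.48 at day 15.

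Cd68 was at 0.667, 1.85 and 3.54 CPM in uninjured muscle and at 289, 329 and 375 CPM at day 4, a change of 7.41 ± 0.59 on the log2 scale. Lyz2 was at 17.1, 24.9 and 28.0 CPM in uninjured muscle and at 1210.0, 1360.3 and 2063.3 CPM at day 4, a change of 6.03 ± 0.53. Aif1, which encodes the actin-binding protein Iba1 of macrophages and microglia, went from 0.176, 0.510 and 1.33 CPM to 31.8, 46.7 and 58.7 CPM, a change of 6.38 ± 0.58. At day 15 the median levels of these 3 genes were 41.8, 274 and 10.9 CPM, and all 3 were still called higher, with log2 fold changes of 4.39 ± 0.52, 3.57 ± 0.47 and 4.18 ± 0.55.

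Ms4a7 was nearly absent before injury, with 20 counts over the 6 uninjured libraries and 0 to 6 in each. At day 4 it was at 129, 148 and 177 CPM (lowest, median and highest), at day 7 its median was 62.5 CPM, at day 11 61.9 CPM and at day 15 16.4 CPM. The ratio of levels to uninjured muscle was 1054 at day 4, with a 95% counting interval of 682 to 1726, and 98.8 at day 15 (63.8 to 162). Such intervals cover counting error only and take each count as 1 independent read. With every count halved, since most low counts were even, they were 573 to 2198.4 and 53.5 to 207.

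Mertk, the receptor for the bridging ligands Gas6 and Pros1, had the smallest change of the 10 genes at day 4. Its lowest, median and highest levels before injury were 4.45, 5.39 and 7.89 CPM. Day 4 libraries had 23.2, 33.0 and 44.8 CPM and day 15 libraries 13.5, 14.7 and 16.1 CPM. The groups did not overlap. Its log2 fold change was 2.56 ± 0.20 at day 4 (adjusted p = 5.3e-11), 1.80 ± 0.19 at day 7, 1.26 ± 0.19 at day 11 and 1.38 ± 0.19 at day 15 (adjusted p = 9.9e-07).

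Ly6c2 was the least abundant gene after injury. Uninjured libraries held 30 counts in all (0 to 11 each) and reached 0.505 CPM at most, and day 4 libraries had 3.02, 6.99 and 12.1 CPM. Its log2 fold change was 4.93 ± 0.65 at day 4 (adjusted p = 2.2e-07), 2.02 ± 0.64 at day 7 (adjusted p = 0.0065), 2.86 ± 0.64 at day 11 (adjusted p = 2.9e-04) and 0.86 ± 0.69 at day 15 (adjusted p = 0.27). The ratio of levels was 33.7 at day 4 (95% counting interval 23.5 to 50.01) and 1.89 at day 15 (1.20 to 3.05), and with every count halved the intervals were 20.4 to 60.3 and 1.005 to 3.85. At day 15 its libraries spanned 0.143 to 0.970 CPM and overlapped the uninjured ones. The day 15 value passed the threshold with scaling by library size alone (1.84, adjusted p = 0.0178), and the day 7 value missed it with counts thinned to the smallest total (1.44, adjusted p = 0.0798). Over 39 alternatives the adjusted p at day 15 was 0.0178 to 0.821 and at day 7 5.6e-05 to 0.0798.

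Without the library labelled female day 11 replicate 3, 10 of 10 genes were still called higher at day 11. The values moved little, for example from 8.77 to 9.01 on the log2 scale for Ms4a7, from 4.90 to 5.12 for Adgre1 and from 1.26 to 1.18 for Mertk.

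From day 4 to day 7, 7 of 10 genes were called lower, beside 16.7% of all tested genes called lower and 18.5% higher. Ly6c2 fell by 2.91 ± 0.54 on the log2 scale (adjusted p = 5.2e-04), Itgam fell by 1.95 ± 0.39 (adjusted p = 7.9e-04) and Adgre1 fell by 1.63 ± 0.40 (adjusted p = 0.0036). Lyz2 fell by 1.49 ± 0.43, Cd68 fell by 1.25 ± 0.44, Csf1r fell by 0.94 ± 0.32 and Mertk fell by 0.77 ± 0.19. Ms4a7 (-1.09 ± 0.46, adjusted p = 0.0658), Aif1 (-0.64 ± 0.43, adjusted p = 0.248) and Spi1 (-0.61 ± 0.41, adjusted p = 0.247) did not pass.

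For 6 genes, Adgre1, Cd68, Csf1r, Ms4a7, Itgam and Ly6c2, all day 7 libraries lay below all day 4 libraries, as for 7.24% of all tested genes. Ly6c2 was at 0.460 to 1.44 CPM at day 7 against 3.02 to 12.1 CPM at day 4. The calls of Cd68 and Csf1r lay near the threshold and were kept in 34 and 35 of 39 alternatives. Leaving out male day 7 replicate 1 or 3, female day 7 replicate 1 or female day 4 replicate 2 ended both, and leaving out female day 7 replicate 3 ended that of Cd68, with adjusted p of 0.0550 to 0.0855 for Cd68 and 0.0533 to 0.0751 for Csf1r. Ms4a7 passed without male day 7 replicate 2, female day 7 replicate 2, female day 11 replicate 2 or female day 11 replicate 3, with adjusted p of 0.0126 to 0.0437.

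Between days 7 and 11, edgeR and DESeq2 both called 0 of 10 genes, and among all tested genes edgeR called 0.0408% higher and 0.0175% lower. At an unadjusted p under 0.05 there was 1 gene, Mertk (-0.54 ± 0.19, edgeR adjusted p = 0.385). All 10 genes overlapped between these days, and 0.344% of all tested genes did not. Without the library labelled female day 11 replicate 3, Ms4a7 went from -0.18 to 0.11, Ly6c2 from 0.83 to 1.10 and Adgre1 from 0.30 to 0.56, and 0 of 10 were called. The spread at day 11 was wide: the median SD of log2 CPM over the 10 genes was 1.28 at day 11, beside 0.435 over all tested genes, and 0.323 at day 4, beside 0.264. Mertk had the smallest SD of the 10 at day 11, 0.202. Without that library the median SD was 0.966, beside 0.365 over all tested genes, and that of Mertk 0.200.

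**Figure D3:**
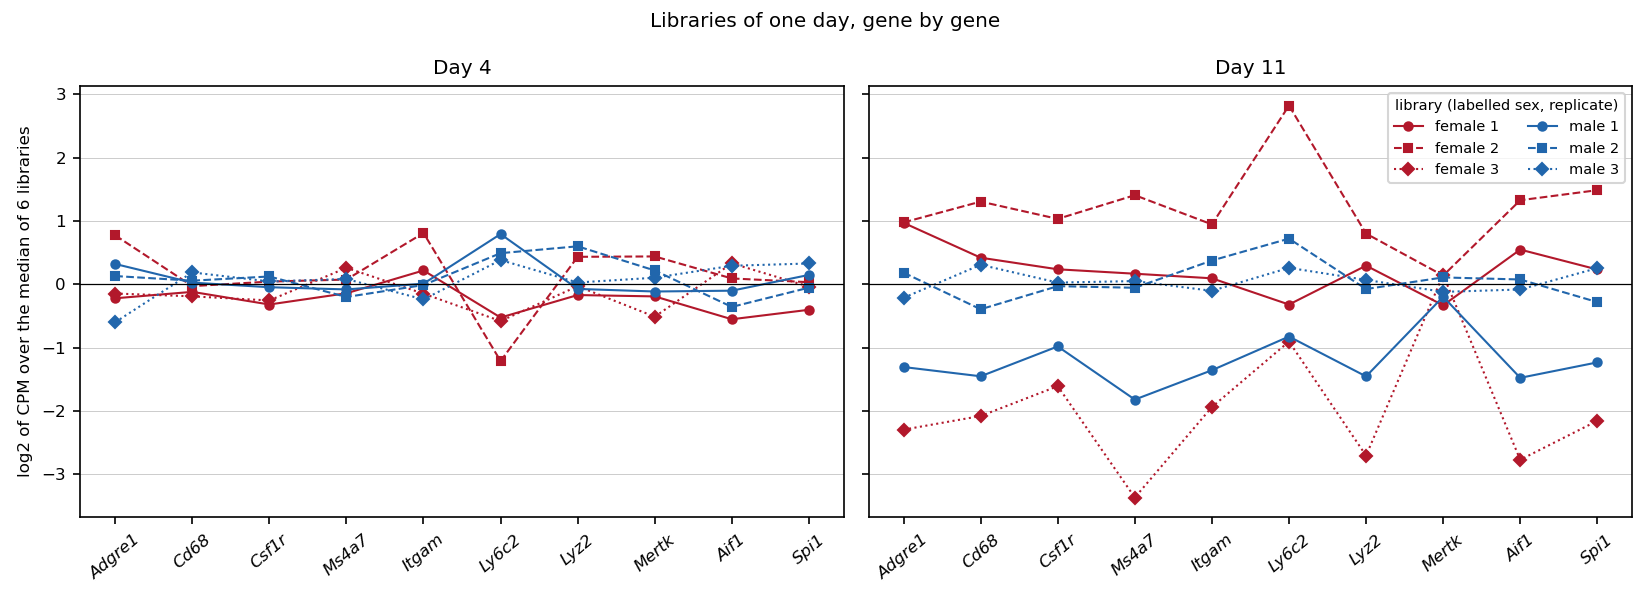
Log2 of each library's CPM over the median of the 6 libraries of its day, for each gene, at day 4 (left) and day 11 (right), 1 line per library. At day 11 the line of female replicate 2 is highest for 9 of 10 genes and that of female replicate 3 lowest for 9, and the lines lie closest together at Mertk.

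The spread at day 11 was shared by the genes. Female day 11 replicate 2 had the highest level of 6 in 9 of 10 genes, and female day 11 replicate 3, whose sex-linked transcripts did not match its label, the lowest in 9. In Ms4a7, for example, the 3 female libraries had 69.5, 164 and 5.99 CPM and the 3 male ones 17.5, 59.6 and 64.1 CPM. Mertk in the same libraries ran from 11.0 to 15.4 CPM. At day 15 female replicate 1 was highest in 8 of 10 genes.

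From day 11 to day 15, 2 of 10 genes were called lower, beside 2.25% of all tested genes called lower and 2.00% higher. Ms4a7 fell by 2.19 ± 0.48 (adjusted p = 0.0094) and Aif1 fell by 1.73 ± 0.45 (adjusted p = 0.0277), while Ly6c2 (-1.99 ± 0.59) had an adjusted p of 0.0506. All 10 genes overlapped between these days, and 2.44% of all tested genes did not. Mertk had a value of 0.12 ± 0.19. Without the library labelled female day 11 replicate 3, 6 genes were called: Ms4a7 (-2.49), Ly6c2 (-2.27), Aif1 (-2.01), Spi1 (-1.47), Cd68 (-1.42) and Csf1r (-0.996). Without female day 11 replicate 2, 0 were called, with Ms4a7 at -1.65 (adjusted p = 0.0552) and Aif1 at -1.34 (adjusted p = 0.124).

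The call of Aif1 was also lost without male day 11 replicate 2 or 3, male day 15 replicate 2 or 3, or female day 15 replicate 2 or 3 (adjusted p 0.0626 to 0.0855). Ly6c2 passed in 13 of 39 alternatives, among them the fits without male uninjured replicate 2, female uninjured replicate 1, male day 7 replicate 1 or 2, female day 7 replicate 1, male or female day 11 replicate 1, or female day 15 replicate 3 (adjusted p 0.0306 to 0.0490). Over all 39 its adjusted p was 0.0088 to 0.391.

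From day 4 to day 15, 10 of 10 genes were called lower, beside 27.0% of all tested genes called lower and 25.1% higher. Ly6c2 fell by 4.07 ± 0.60 on the log2 scale (16.8-fold), Ms4a7 fell by 3.47 ± 0.50 (11.1-fold), Cd68 fell by 3.02 ± 0.47 (8.12-fold) and Itgam fell by 2.58 ± 0.40 (5.998-fold). Lyz2 fell by 2.46, Spi1 fell by 2.34, Aif1 fell by 2.20, Csf1r fell by 2.02 and Adgre1 fell by 1.97. Mertk fell by 1.18 ± 0.19, or 2.27-fold, the smallest of the 10. In 9 genes all day 15 libraries were below all day 4 libraries, Adgre1 being the exception, with 57.4 CPM in 1 day 15 library and 45.2 CPM in 1 day 4 library. The same separation was found in 19.4% of all tested genes.

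The ratio of Ly6c2 to Mertk counts sets a transcript of blood monocytes beside a receptor of tissue macrophages within 1 library, so it does not depend on scaling. Mertk did not track the other members in every library. In female day 11 replicate 3, which was lowest of 6 in 9 genes, Mertk was the highest of 6 (15.4 CPM). Whether the ratio follows a balance of monocytes and macrophages or the level of Ly6c2 alone was not tested. Before injury Ly6c2 counts were 3.22% of Mertk counts (median of 6 libraries, range 0 to 8.46%). The share was 22.9% on day 4 (6.73 to 39.7%) and 4.12% on day 7 (3.37 to 5.35%). On day 11 it was 7.22% (3.01 to 40.2%), and on day 15 it was 1.98% (0.907 to 6.04%). No day 7 library reached the lowest day 4 library, and 1 day 11 library, female replicate 2, exceeded all day 4 libraries. An exact two-sided permutation test of 6 against 6 libraries, on log2 of the ratio with 1 added to each count, gave a difference of -2.18 from day 4 to day 7 (p = 0.0022, the smallest it allows, adjusted over 4 comparisons 0.0043).

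From day 7 to day 11 the log2 ratio differed by 0.90 (exact permutation p = 0.0844, adjusted 0.0844), from day 11 to day 15 by -1.75 (p = 0.0173, adjusted 0.0231) and from day 4 to day 15 by -3.03 (p = 0.0022, adjusted 0.0043). With male day 11 replicate 1 left out, the Ly6c2 to Mertk ratio of day 11 differed from that of day 7 by 1.08 (exact permutation, adjusted p = 0.0411). Without female day 11 replicate 3, whose sex-linked transcripts did not match its label, day 11 differed from day 7 by 1.17 and day 15 from day 11 by -2.02 (exact permutation, Ly6c2 to Mertk, adjusted p = 0.0108 for both), and without female day 11 replicate 2 the first of these was 0.44 (adjusted p = 0.171).

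**Figure D4:**
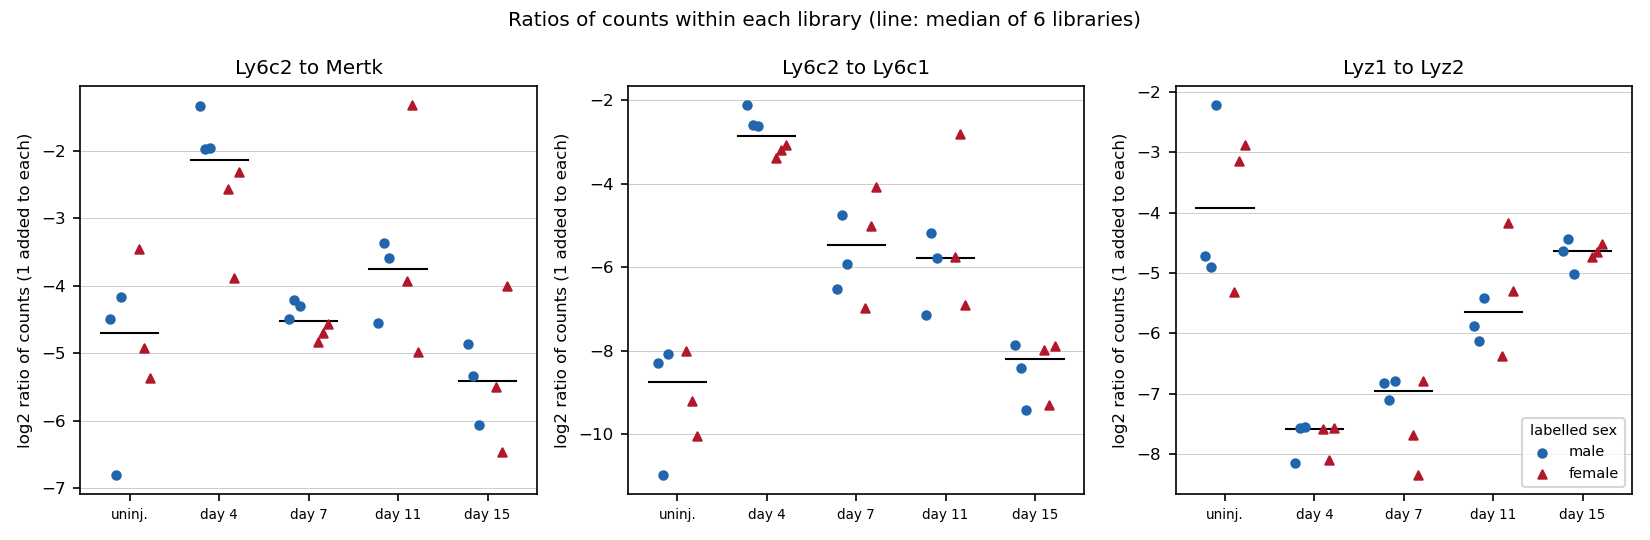
Log2 ratio of counts within each library (1 added to each count) for Ly6c2 to Mertk, Ly6c2 to its paralog Ly6c1, and Lyz1 to its paralog Lyz2, by time, with a line at the median of 6 libraries. Both Ly6c2 ratios are highest at day 4, where the Lyz1 to Lyz2 ratio is lowest.

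Ly6c1, the paralog of Ly6c2 that endothelial cells express, had a median of 105 CPM in uninjured muscle and 122 CPM at day 15, with 51.8, 42.6 and 55.8 CPM at days 4, 7 and 11. It was called lower at day 4 (-1.19 ± 0.28), day 7 (-1.32 ± 0.28) and day 11 (-0.998 ± 0.28), and had 0.34 ± 0.27 at day 15 (adjusted p = 0.28). Per library Ly6c2 counts were 0.202% of Ly6c1 counts in uninjured muscle, 14.0% at day 4, 2.30% at day 7, 1.76% at day 11 and 0.286% at day 15 (medians of 6). The log2 ratio was higher than in uninjured muscle by 6.27 at day 4, 3.56 at day 7 and 3.50 at day 11 (exact permutation p = 0.0022 each, adjusted over 4 comparisons 0.0029), and by 0.62 at day 15 (p = 0.303). Without the library labelled female day 11 replicate 3 the day 11 difference was 3.77 (exact permutation p = 0.0022). Ly6c1 and Ly6c2 moved in opposite directions at day 4. Their ratio was chosen after the data were seen, and 0.0022 is the smallest p that its permutation test allows. These tests therefore add little to the calls of the 2 genes.

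Lyz1, the lysozyme of Paneth cells, was at a median of 1.55 CPM in uninjured muscle, 6.85 at day 4, 2.32 at day 7, 7.17 at day 11 and 11.0 at day 15. It was called higher at day 4 (1.80 ± 0.59), day 11 (2.57 ± 0.60) and day 15 (2.42 ± 0.60), and not at day 7 (0.74 ± 0.59, adjusted p = 0.26). Lyz1 counts were 7.40% of Lyz2 counts in uninjured muscle (median of 6 libraries, range 2.33 to 21.5%). The share was 0.521% at day 4 (0.352 to 0.531%) and 0.796% at day 7 (0.302 to 0.905%). It was 2.00% at day 11 (1.19 to 5.57%) and 4.00% at day 15 (3.05 to 4.56%). The uninjured range thus held every day 15 library and overlapped that of day 11. By median, Lyz2 was highest at day 4 and Lyz1 at day 15, although the mean of Lyz1 was higher at day 11 (13.5 CPM, with 1 library at 49.4) than at day 15 (12.01 CPM). The Lyz1 to Lyz2 ratio was not tested, and its day 11 median was 1.68% without the library labelled female day 11 replicate 3.

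The sexes were compared in 10 contrasts, and edgeR called 0 of 10 genes in each. In uninjured females against uninjured males, where 0.636% of all tested genes were called, no member had an unadjusted p under 0.05, beside 12.6% of all tested genes. For a sex difference in the response to injury the shares of all tested genes called were 0.0467% at day 4, 0.123% at day 7, 0.0584% at day 11, 0.210% at day 15 and 0.0350% jointly over the 4 days. Members with an unadjusted p under 0.05 numbered 0, 1, 2 and 4 of 10 at the 4 days and 1 in the joint test, beside 7.66%, 9.94%, 10.1%, 12.8% and 6.20% of all tested genes. Females against males within a day, added after seeing the data, gave 0.00584% of all tested genes at days 4, 7 and 11 and 0 at day 15, at an adjusted p under 0.05. At an unadjusted p under 0.05 there were 0 members at days 4, 7 and 11 and 3 at day 15, beside 0.922%, 4.18%, 3.08% and 10.6% of all tested genes.

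The day 11 contrasts and the joint test count as female the library labelled female day 11 replicate 3, whose sex-linked transcripts did not match that label. Without it the sex difference in the response at day 11 went from 2.25 to 2.75 for Adgre1 and from 2.35 to 2.88 for Aif1. Females against males at day 11 went from 0.78 to 1.30 for Adgre1 and from 0.31 to 0.79 for Itgam. In the day 11 contrasts and the joint test 0 of 10 genes were called without it. The other sex contrasts took their spread from the fit reported, which held this library, so their shares of all tested genes are uncertain too. Females against males at day 15 gave 0 calls, although Xist was at 266 to 552 CPM in females and 0.194 to 3.49 in males. A fit of those groups alone called 10 of all tested genes higher and 19 lower.

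Adgre1 had the lowest p of the 10 genes in the sex contrasts. At day 15 it was at 57.4, 15.9 and 31.6 CPM in the 3 female libraries and at 15.0, 7.85 and 7.54 CPM in the 3 male ones, while in uninjured muscle the females had 0.827, 0.417 and 0.527 CPM and the males 1.51, 2.08 and 1.30 CPM. The groups did not overlap at either time, with females lower in uninjured muscle and higher at day 15. In all, 4 members had all females below all males in uninjured muscle (Adgre1, Itgam, Lyz2 and Aif1), where 23.4% of all tested genes did not overlap between the sexes, and 2 at day 4 (Cd68 and Ly6c2), where 8.76% did not. Adgre1 and Csf1r had all females above all males at day 15, where 23.0% of all tested genes did not overlap, and no member was separated at day 7 or 11. The response differed by 3.25 ± 0.92 on the log2 scale (edgeR adjusted p = 0.139). DESeq2 called Adgre1 (3.19, adjusted p = 0.0233), as did an edgeR fit of the 4 groups alone (3.23, adjusted p = 0.0321). Over 39 alternatives the adjusted p was 0.0233 to 0.340. DESeq2 called no other member and none in the other 9 sex contrasts.

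Ly6c2 at day 4 was at 12.1, 9.83 and 9.11 CPM in males and at 4.86, 3.02 and 4.67 CPM in females. These groups did not overlap, and the difference of -1.31 ± 0.71 between females and males was not called (adjusted p = 1.0). Csf1r at day 15 was at 124, 62.1 and 65.4 CPM in females and at 61.9, 32.5 and 27.1 CPM in males, also with no overlap and not called (1.05 ± 0.46, adjusted p = 0.425). With 3 libraries a group the SE of a sex difference in response was 0.38 for Mertk and 1.63 for Ms4a7 at day 4.

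Ligands, partners and signalling genes of the members were counted from lists. Of the Csf1r axis, 10 of 11 tested genes were called higher at day 4 and 11 of 11 at day 15, beside 40.1% and 39.7% of all tested genes. Csf1 rose from a median of 15.4 to 104 CPM at day 4 (2.85 ± 0.25) and was still higher at day 15 (1.04 ± 0.24). Il34, the other ligand, had 0.24 ± 0.14 at day 4 (adjusted p = 0.12) and rose by 0.86 ± 0.14 at day 15. Fgr, a Src-family kinase, and Tyrobp, the DAP12 adaptor, had the largest changes of the list at day 4, 7.33 ± 0.60 and 6.97 ± 0.54.

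Among the transcription factors listed beside Spi1, 10 of 18 were called higher and 8 lower at day 4, beside 40.1% higher and 33.0% lower among all tested genes. Cebpa (4.27 ± 0.35) and Irf8 (2.83 ± 0.29) rose and Cebpb fell by 1.69 ± 0.16. At day 15 Cebpa (2.31 ± 0.33) and Irf8 (0.71 ± 0.27) were still higher. Tfec and Spic, both at a median of 0 CPM in uninjured muscle, were at 4.78 and 3.53 CPM at day 4.

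Of the partners and ligands of Itgam, 7 of 8 tested genes were called higher at day 4 and 0 lower, beside 40.1% and 33.0% of all tested genes. Itgb2, the beta chain of Mac-1, rose by 6.501 ± 0.49 at day 4, from a median of 1.18 to 93.1 CPM, beside 6.55 ± 0.50 for Itgam, and was at 17.5 CPM at day 15. Itgax, the alpha chain CD11c, rose by 7.68 ± 0.57. Of the Mertk group, 11 of 16 were higher and 3 lower at day 4, beside the same 40.1% and 33.0%. Pros1 (1.94 ± 0.22) and the sister receptor Axl (2.97 ± 0.20) rose, Gas6 fell by 0.42 ± 0.16, and the complement genes C1qb (6.34 ± 0.47) and C1qc (6.09 ± 0.49), whose products tag dying cells, rose most.

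All 12 recruitment genes were called higher at day 4, beside 40.1% of all tested genes. Ccl2, a chemokine that draws monocytes, went from a median of 0.199 to 33.8 CPM at day 4 and 5.23 at day 7, and its receptor Ccr2 from 0.849 to 67.8 and 23.7 CPM. Cx3cr1, a receptor of patrolling monocytes and macrophages, went from 0.588 to 45.4 CPM at day 4 and 5.85 at day 15. Ccl8, another chemokine, had a change of 8.76 ± 0.72 at day 4, from an uninjured median of 0.0763 CPM. At day 15 against day 4, 11 of the 12 were lower, beside 27.0% of all tested genes.

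In the family of Ms4a7, 9 of 10 tested genes were higher at day 4, beside 40.1% of all tested genes. Ms4a14 was at a median of 40.8 CPM at day 4 and Ms4a6d at 86.3, and Ms4a1, the B cell antigen CD20, was not called (-0.30 ± 0.69). Of 7 tested Ly6 genes 5 were higher and 1, Ly6c1, lower at day 4, beside 40.1% and 33.0% of all tested genes. Ly6e rose by 1.47 ± 0.21, and Ly6h had a median of 0 CPM in uninjured muscle, 0.548 at day 4 and 5.53 at day 7. Of 12 lysosomal and lysozyme genes 11 were higher at day 4, led by the proteases Ctss (8.25 ± 0.66) and Lgmn (3.93 ± 0.34). From day 4 to day 15, 11 of the 12 were lower, beside 27.0% of all tested genes.

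Several members are not confined to monocytes and macrophages, as neutrophils also express Itgam, Lyz2 and Spi1. Summed CPM of 12 neutrophil markers spanned 1.14 to 2.97 before injury and 12.9 to 34.2 on day 4, then 8.14 to 30.3 (day 7), 4.71 to 19.5 (day 11) and 3.02 to 40.4 (day 15). The medians were 2.03, 19.3, 21.6, 12.2 and 3.83 in that order, and the 40.4 was 1 library, female day 15 replicate 3. Of the 7 neutrophil markers that were tested, 6 were higher at day 4, beside 40.1% of all tested genes. Ly6g was at 0 counts in all uninjured libraries and at 0 to 4 counts in any injured one. S100a8 was at a median of 6.20 CPM and Mmp8 at 2.39 CPM at day 4. Of dendritic cell markers 6 of 8 were higher at day 4, among them Flt3 (5.08 ± 0.61) and Ccr7 (4.59 ± 0.66), with sums of 4.62 to 7.62 CPM in uninjured muscle and 13.6 to 25.6 at day 4. Of lymphocyte markers 4 of 8 were higher, near the 40.1% of all tested genes, with sums of 0.703 to 5.80 and 2.93 to 9.08 CPM. The part of these cells in the members' values was not tested.

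Endothelial markers did not follow the members at day 4, with 6 of 9 lower, beside 33.0% of all tested genes. Among them were Kdr (-1.36 ± 0.29) and Egfl7 (-1.18 ± 0.21). At day 15, 7 of 9 were higher, beside 39.7% of all tested genes. Of the fibre genes 8 of 9 were lower at day 4, led by Pvalb (-4.45 ± 0.64) and Myh4 (-4.14 ± 0.52).

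The genes most like the members were sought by the root mean square difference, over the 10 groups, between a gene's centred mean log2 CPM and the median of the members' own. Among 13731 genes with a mean of at least 1 CPM, the 10 non-members with the smallest difference were C1qc (0.114), Il10ra (0.133), Lcp1 (0.134), Vav1 (0.146), Nckap1l (0.153), Ptafr (0.158), Arhgap30 (0.169), Btk (0.176), Tbxas1 (0.181) and Laptm5 (0.198). Of the members, which set that median, Csf1r ranked 11 and Lyz2 12, Itgam 34, Spi1 80 and Adgre1 98, then Aif1 281 and Cd68 357. Ly6c2 (1183), Mertk (1612) and Ms4a7 (2462) ranked far lower. Among the members, Csf1r and Lyz2 were thus closest to the common pattern, behind the 10 non-members named.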

How the data were processed

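The measurements are bulk RNA-seq counts from 30 libraries. Raw counts per gene symbol were deposited by the authors, 1 file per library; STAR, edgeR and mm39 are named in the submitters' processing notes, and for the counting program, annotation, strand handling and versions nothing is given in the sources used here. Total counts were 13089999 to 57277336 per library, so genes with few counts are the least precise.

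Groups were taken from the labels. edgeR 4.0.16 (R 4.3.3; TMM factors, filterByExpr, quasi-likelihood test, Benjamini-Hochberg adjustment over 17136 genes, threshold 0.05) was fitted once to the 10 groups; 9128 symbols were removed by the filter. Log2 CPM used a prior count of 2. Ratios of counts were tested by exact permutation with numpy 2.4.6. DESeq2 1.42.0, RLE or no scaling, other filters, fits of the compared groups alone, a replicate block, and fits without each library in turn were the alternatives; halved counts, counts thinned to 13089999, females against males within a day, counting intervals with halved counts, day 11 values without 1 library and the ratio of Ly6c2 to Ly6c1 were chosen after seeing the data. The edgeR and DESeq2 scripts were tested on simulated data.

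Members and lists were chosen with earlier results of these data known. From each list were named the ligands, receptors, partner chains and close paralogs of members and the 2 called genes with the largest change at day 4 at a mean of at least 1 CPM; Ly6g and Ms4a1 were named after their values were seen. Some genes under this rule are not reported here. Gene lengths and shared sequence came from GENCODE M21 and promoters from RefSeq, both GRCm38, by gene name only.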

Additional observations from a re-analysis of the deposited data

Results flagged for a closer look

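In each group of 6 libraries at 1 time, the highest and lowest CPM of each gene, and of the sum of the 10, were set against the others by Dixon's gap ratio at its 95% critical value. Over 55 such groups 3 had a library standing apart, and chance gives about 1 in 20. Itgam at day 4 was at 162 CPM in female replicate 2, with the next library at 107. Ly6c2 at day 11 was at 6.14 CPM in female replicate 2, with the next at 1.43, and in this library 9 of the 10 genes were the highest of 6. Lyz2 at day 7 was at 1339.6 CPM in male replicate 2, with the next at 644. In 0 of 80 comparisons looked at did all libraries of the sexes respond in opposite directions. Against uninjured muscle this could hardly occur. There every injured library lay above every uninjured one for 10 of 10 genes at day 4 and 9 of 10 at the other days.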

How the results depend on the processing

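Over 39 alternatives and 80 values of single genes, 3061 of 3120 kept their direction and their side of the threshold. Of the rest, 20 lost a call, 24 gained one and 15 changed sign, and the cause was not tested. Among the alternatives 30 were fits without 1 library, and most of these dropped a library of neither time compared. Such fits reach a comparison only through the shared spread and scaling. All sign changes lay between days 7 and 11, where nothing was called. Leaving out 1 library gave ranges of -0.72 to 0.13 for Ms4a7, -0.46 to 0.23 for Itgam, -0.21 to 1.10 for Ly6c2, -0.52 to 0.18 for Lyz2 and -0.22 to 0.45 for Aif1, and thinned counts gave 0.013 for Itgam. From day 11 to day 15 the number of genes called, 2 in the fit reported, was 0 to 6 without 1 library, 4 with DESeq2 and 0 in a fit of the compared groups alone. For a sex difference in the response at day 15, where the fit reported called 0, DESeq2 called 1 and the compared groups alone called 1, both times Adgre1.

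Equal replicate numbers gave little sign of pairing, with pairs taken across times and sexes. Over 135 pairs with the same number the deviations from the group means correlated with a mean r of 0.0125 (-0.532 to 0.614). The mean was -0.00633 over 270 pairs with different numbers. Averaged by replicate number, r was highest with a library's own number for 12 of 30 libraries. With a replicate block, a sign-flip permutation of the Ly6c2 to Mertk ratio gave -2.18 from day 4 to day 7 (adjusted p = 0.0625), -1.75 from day 11 to day 15 (adjusted p = 0.125) and -3.03 from day 4 to day 15 (adjusted p = 0.0625). The smallest p that 6 pairs allow is 0.03125 before adjustment over 4 comparisons, so these say little about the stability of the ratio. In the edgeR fit with the block, Ms4a7 was called from day 4 to day 7 (-1.21, adjusted p = 0.0444). The ratio between days 7 and 11 was 0.44 to 1.17 without 1 library.

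Among all tested genes, scaling by library size alone called 12601 higher and 1482 lower at day 4 (6864 and 5662 with TMM), 12665 and 1212 at day 7 (7127 and 5132), 12652 and 1385 at day 11 (7319 and 5087) and 11956 and 1360 at day 15 (6809 and 5014). It called 2019 higher at day 7 against day 4 (3174 with TMM), 2773 higher at day 15 against day 4 (4302) and 194 higher at day 15 against day 11 (342). DESeq2 called 82 higher and 46 lower between days 7 and 11 (7 and 3 by edgeR), and 533 and 741 between days 11 and 15 (342 and 385), where the compared groups alone gave 122 lower and thinned counts 185 lower. Depth limits Ms4a7, with 20 counts over the 6 uninjured libraries, and Ly6c2, with 30 there and 59 at day 15.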
